A study of Mus musculus with 15 samples.

Results

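Hepatic transcripts of 10 acute phase proteins were followed in treated and untreated diabetic mice and in lean mice: serum amyloid A (Saa1, Saa2, Saa3 and Saa4), orosomucoid (Orm1 and Orm2), the pentraxins Apcs and Crp, haptoglobin (Hp) and lipocalin 2 (Lcn2). The genes were chosen by name as liver-made plasma proteins of the acute phase response, with earlier results of these data known. All 10 were measured, among 18193 genes tested, by 12 of the 34945 gene-assigned probe sets used here. The samples were livers of 15 male mice on Affymetrix mouse genome arrays, with 5 mice in each group. XKA-H mice were KKAy mice, an obese and diabetic strain that carries the lethal yellow agouti allele. They were given 1.5 g/kg of the herbal medicine Xiao-Ke-An (XKA) by gavage once a day for 32 days from 10 weeks of age. KKAy model mice were of the same strain and age and received distilled water. Both KKAy groups ate a high-fat diet. C57BL/6J mice, matched for age and sex, received distilled water and ate normal chow. They came from another supplier, so strain, diet and supplier cannot be told apart in any comparison with them.

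The acute phase response is the change in the plasma proteins made by the liver during infection, injury or inflammation. Interleukin 6 acts through its receptor, the shared subunit gp130 and STAT3, interleukin 1 and tumor necrosis factor act through NF-kB, and C/EBP factors bind near many of the responding genes. In mice, serum amyloid A proteins 1 and 2, which ride on high-density lipoprotein, and serum amyloid P (Apcs) are the classic strong responders, while C-reactive protein, a major responder in humans, responds little.

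The 250 bases before the transcription start were matched in the RefSeq promoter table (build GRCm38.p6) for 8 of the 10 genes, Saa1, Saa2, Saa3, Saa4, Orm2, Apcs, Crp and Lcn2. Orm1 and Hp were not matched. Motifs were searched on both strands, and no match overlapped another: TTGCNNAA, the letters bound by C/EBP factors, TTCNNNGAA, the letters bound by STAT factors, and the NF-kB consensus. Sequences are given for the 7 genes whose KKAy model and C57BL/6J livers did not overlap in signal, with capitals marking the C/EBP letters, or in Apcs the STAT letters.
Saa1, chr7:46742981-46743230, minus strand: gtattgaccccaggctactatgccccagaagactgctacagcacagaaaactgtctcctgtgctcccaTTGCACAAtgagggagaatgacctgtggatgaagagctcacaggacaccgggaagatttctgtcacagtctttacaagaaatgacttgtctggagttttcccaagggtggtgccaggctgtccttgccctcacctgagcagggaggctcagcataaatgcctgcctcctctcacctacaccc
Saa2, chr7:46751583-46751832, plus strand: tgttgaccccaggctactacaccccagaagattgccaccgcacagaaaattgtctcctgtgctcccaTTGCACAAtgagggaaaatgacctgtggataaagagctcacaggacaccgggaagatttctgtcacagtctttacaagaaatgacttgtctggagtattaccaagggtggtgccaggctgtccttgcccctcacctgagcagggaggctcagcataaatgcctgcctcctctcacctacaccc
Saa3, chr7:46715677-46715926, minus strand: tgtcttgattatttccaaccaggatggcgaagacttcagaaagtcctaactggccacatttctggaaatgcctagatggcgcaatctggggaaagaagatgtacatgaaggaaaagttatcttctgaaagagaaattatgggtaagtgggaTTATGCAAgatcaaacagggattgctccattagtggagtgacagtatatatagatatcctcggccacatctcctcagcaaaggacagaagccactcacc
Saa4, chr7:46732604-46732853, minus strand: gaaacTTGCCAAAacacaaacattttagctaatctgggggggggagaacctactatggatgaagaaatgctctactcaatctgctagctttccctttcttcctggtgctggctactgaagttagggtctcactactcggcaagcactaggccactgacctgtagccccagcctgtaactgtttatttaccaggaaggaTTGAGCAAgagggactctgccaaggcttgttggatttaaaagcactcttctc
Orm2, chr4:63362199-63362448, plus strand: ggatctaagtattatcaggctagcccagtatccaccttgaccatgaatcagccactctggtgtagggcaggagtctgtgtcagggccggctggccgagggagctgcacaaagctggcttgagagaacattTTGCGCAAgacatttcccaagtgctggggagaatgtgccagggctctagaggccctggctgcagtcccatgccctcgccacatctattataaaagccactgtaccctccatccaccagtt
Apcs, chr1:172895055-172895304, minus strand: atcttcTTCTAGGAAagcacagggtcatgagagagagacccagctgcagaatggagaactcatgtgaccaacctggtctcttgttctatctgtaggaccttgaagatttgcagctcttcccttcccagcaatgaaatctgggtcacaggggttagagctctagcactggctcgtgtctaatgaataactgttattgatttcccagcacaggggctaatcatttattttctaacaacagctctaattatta
Lcn2, chr2:32387740-32387989, minus strand: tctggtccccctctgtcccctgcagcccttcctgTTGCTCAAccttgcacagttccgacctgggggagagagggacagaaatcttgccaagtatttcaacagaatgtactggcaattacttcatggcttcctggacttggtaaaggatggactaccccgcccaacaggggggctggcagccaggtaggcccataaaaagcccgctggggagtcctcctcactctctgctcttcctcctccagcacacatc

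The C/EBP letters were present in 6 of the 8 promoters (Saa1, Saa2, Saa3, Saa4, Orm2 and Lcn2), against 9.56% of all 32851 promoters of that length. The STAT letters were present in 1, that of Apcs, against 7.02% of all promoters, and the NF-kB consensus in 0, against 3.9%. In Saa1 the capitals began 182 bases before the start, and in Saa2 183 bases before it. The promoters of Saa1 and Saa2 were 94.8% identical (238 of 251 aligned positions). Saa3, Saa4, Saa1 and Saa2 are consecutive protein-coding genes on chromosome 7, Orm1, Orm3 and Orm2 on chromosome 4, and Crp and Apcs on chromosome 1.

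Values are signals in array medians, the deposited signal divided by the median of all probe sets on the same array. The undivided medians were 136 to 161 in the XKA-H arrays, 127 to 162 in the KKAy model arrays and 146 to 182 in the C57BL/6J arrays. A probe set's signal depends on its own sequence, so no level was compared between genes. In whole liver, fewer cells of a type and less RNA per cell cannot be told apart. Markers of hepatocytes (10 of 10 above the array median, with Alb at 338 array medians or more on every array) were present at high signal in all 15 livers. Summed over 12 measured neutrophil markers, the signal was 11.7 to 69.2 in XKA-H livers, 19.2 to 47.8 in KKAy model livers and 10.6 to 16.2 in C57BL/6J livers.

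In KKAy model livers, 6 of the 10 genes were higher than in C57BL/6J livers at an adjusted p under 0.05 and 0 were lower: Saa1, Saa2, Saa4, Orm2, Apcs and Lcn2. Of all 18193 genes, 10.6% were called higher in this comparison and 2.44% lower. The median log2 change of the 10 genes was 2.13, against 0.15 over all genes. At an unadjusted p under 0.05 all 10 genes passed, and 25.2% of all genes did. The other 4, Saa3, Orm1, Crp and Hp, had positive changes that did not pass the adjusted threshold. In XKA-H livers, 0 of the 10 genes differed from KKAy model livers by limma, where 0.176% of all genes were called, and 0 passed an unadjusted p of 0.05, which 8.62% of all genes did. All 10 changes were negative, with a median log2 change of -0.6 against -0.06 over all genes. The genes moved together within groups, so their shared sign is not 10 separate observations. Without KKAy model replicate 3 the changes of Lcn2, Saa3, Orm1 and Orm2 were -0.06, -0.18, -0.09 and -0.4. Without XKA-H replicate 1 they were -1.49, -1.51, -0.4 and -1.4. Compared with C57BL/6J livers, 4 of the 10 genes were called higher in XKA-H livers (Saa1, Saa2, Saa4 and Apcs), and 5.54% of all genes were. These comparisons share their arrays, so their changes are not independent of one another. Saa1 and Saa2 are counted as separate genes here and below, though their readings cannot be taken as separate measurements.

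**Figure D1:**
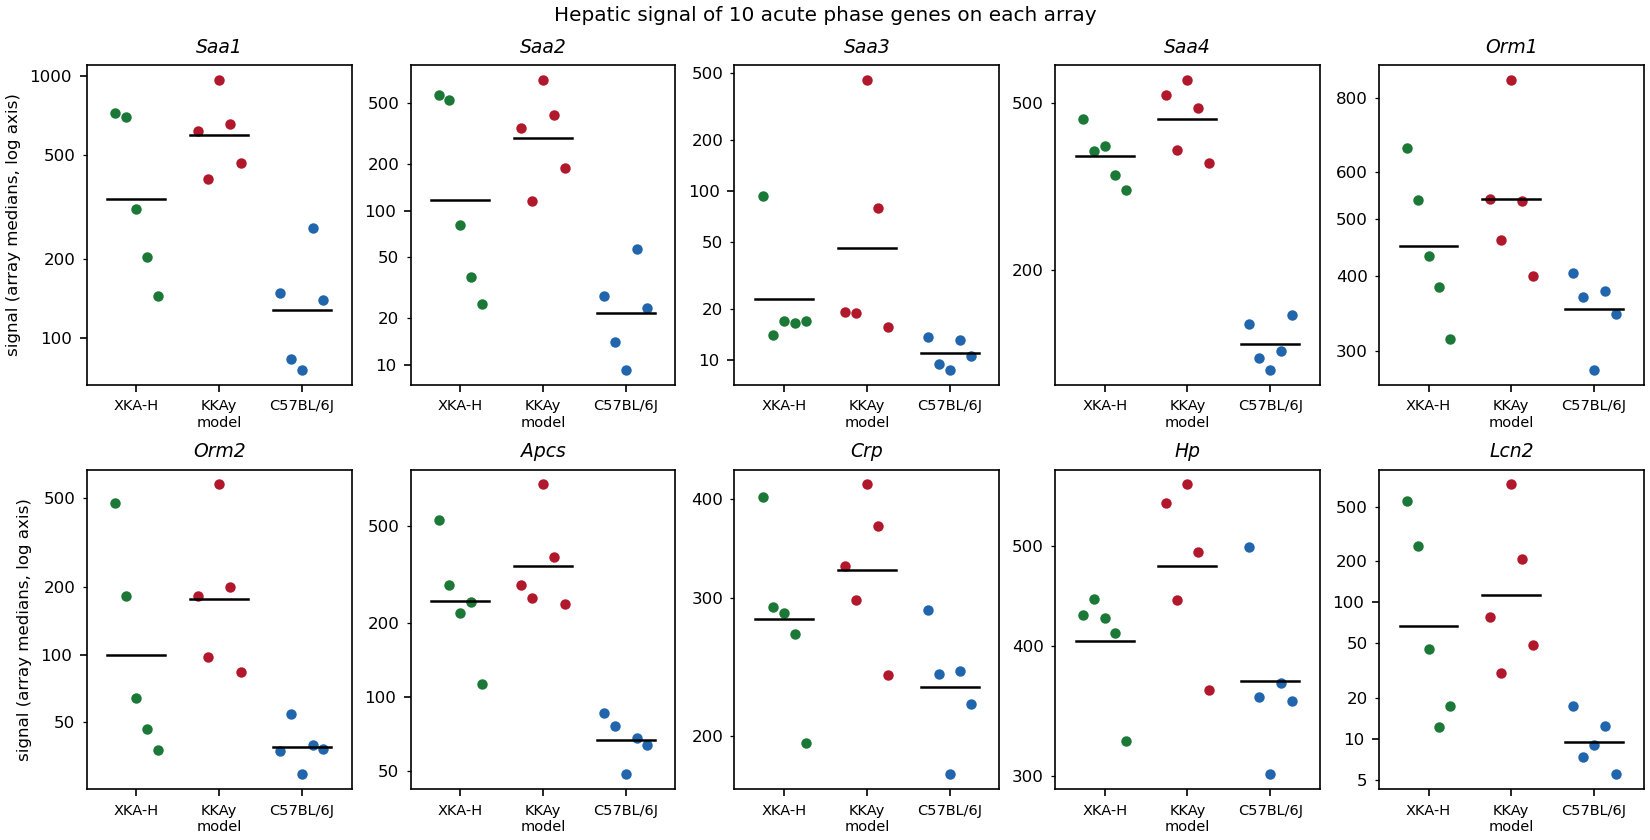
Signal of each gene on each array, in array medians on a log axis, for XKA-H, KKAy model and C57BL/6J livers (5 points a group, in replicate order; the bar is the mean of the log2 signals). The KKAy model points lie above all C57BL/6J points for Saa1, Saa2, Saa3, Saa4, Orm2, Apcs and Lcn2, and the XKA-H points overlap the KKAy model points in all 10 panels.

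Saa1 and Saa2 encode the serum amyloid A forms that enter plasma on high-density lipoprotein. The Saa1 probe set matched to the Saa1 transcript read 719, 695, 309, 204 and 144 array medians in XKA-H livers, 618, 403, 967, 656 and 466 in KKAy model livers, and 148, 83.1, 75.1, 262 and 139 in C57BL/6J livers. No KKAy model liver was as low as any C57BL/6J liver, while the XKA-H livers split into a pair at the KKAy model level and a pair, replicates 4 and 5, within the C57BL/6J range. Saa1 averaged 622 ± 219 in KKAy model livers and 141 ± 74.6 in C57BL/6J livers (SD, n = 5 each), a log2 change of 2.22 ± 0.41 (SE) with an adjusted p of 0.000992 by limma. The mean in XKA-H livers was 414 ± 274, and the change against KKAy model livers was -0.8 ± 0.41, with a 95% interval of -1.66 to 0.05 and an adjusted p of 0.614.

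Saa2 read 566, 519, 80.8, 37.1 and 24.7 array medians in XKA-H livers, 343, 115, 707, 417 and 190 in KKAy model livers, and 28.1, 14, 9.2, 56 and 23.3 in C57BL/6J livers. The order of the arrays was the same as for Saa1 (Spearman correlation of 1 over 15 arrays). Saa2 was 13.6-fold higher in KKAy model than in C57BL/6J livers, the largest change among the 10 genes (log2 change 3.77 ± 0.74, adjusted p = 0.00174 by limma). Against KKAy model livers, XKA-H livers had a log2 change of -1.33 (95% interval -2.88 to 0.21, adjusted p = 0.655 by limma). Against C57BL/6J livers they were 5.4-fold higher, with an adjusted p of 0.0499 by limma, just under the threshold, and the call was lost in 8 of 12 other settings and with 10 of the 15 arrays left out in turn. In the same comparison Saa1 was 2.67-fold higher, with an adjusted p of 0.0375. Without XKA-H replicate 2 these p values were 0.149 for Saa2 and 0.116 for Saa1, and C57BL/6J replicate 3 had nearly the same effect (0.14 and 0.114).

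The readings of Saa1 and Saa2 cannot be taken as separate measurements. A second probe set annotated to Saa1 carries the Saa2 transcript accession, the same accession as the Saa2 probe set, and correlated with the other Saa1 probe set at r = 0.992 and with the Saa2 probe set at r = 0.99 over the 15 arrays. This probe set read 333 ± 257 in XKA-H livers, 552 ± 187 in KKAy model livers and 97 ± 51.3 in C57BL/6J livers. Its log2 change between KKAy model and C57BL/6J livers was 2.59 ± 0.45.

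Saa3 encodes an inducible form made by macrophages and adipocytes as well as by liver. Its signals were 93.5, 14, 17.1, 16.5 and 17.1 array medians in XKA-H livers, 19.2, 18.9, 453, 79.4 and 15.7 in KKAy model livers, and 13.8, 9.54, 8.73, 13.1 and 10.6 in C57BL/6J livers. KKAy model replicates 3 and 4 and XKA-H replicate 1 were high, and the other 7 KKAy livers lay between 14 and 19.2, just above the highest C57BL/6J liver. The log2 change in KKAy model against C57BL/6J livers was 2.06 ± 0.69 with an adjusted p of 0.0555 by limma, although the groups did not overlap (exact permutation p = 0.00794, unadjusted and two-sided, the smallest that 5 against 5 allows). Without KKAy model replicate 3 the change was 1.24. The adjusted p passed the threshold with any of KKAy model replicates 1 (0.0409), 2 (0.0394) and 5 (0.0246) or XKA-H replicate 1 (0.031) left out. It rose to 0.132 without KKAy model replicate 4.

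Saa4 encodes the constitutive serum amyloid A of plasma lipoproteins. Its brighter probe set read 458, 384, 396, 336 and 310 array medians in XKA-H livers, 523, 386, 569, 488 and 359 in KKAy model livers, and 148, 123, 115, 128 and 156 in C57BL/6J livers. Every KKAy liver, with or without XKA, was above every C57BL/6J liver by a wide margin. By this probe set Saa4 had the smallest spread within groups of the 4 Saa genes and the lowest adjusted p of the 10 genes (log2 change 1.78 ± 0.16, adjusted p = 3.3e-07 by limma, KKAy model minus C57BL/6J). XKA-H minus C57BL/6J gave 1.49 ± 0.16 with an adjusted p of 4.7e-06. Against KKAy model livers the change was -0.29, with a 95% interval of -0.63 to 0.05. The second Saa4 probe set moved in the same direction, with means of 62.6 ± 28.5 in XKA-H, 91.8 ± 39.2 in KKAy model and 13.5 ± 0.676 in C57BL/6J livers. Its log2 change between KKAy model and C57BL/6J livers was larger, 2.64 ± 0.27. Its spread was wider in the KKAy groups, with an SD of the log2 signal of 0.555 in XKA-H and 0.685 in KKAy model livers. The brighter probe set had 0.219 and 0.286.

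**Figure D2:**
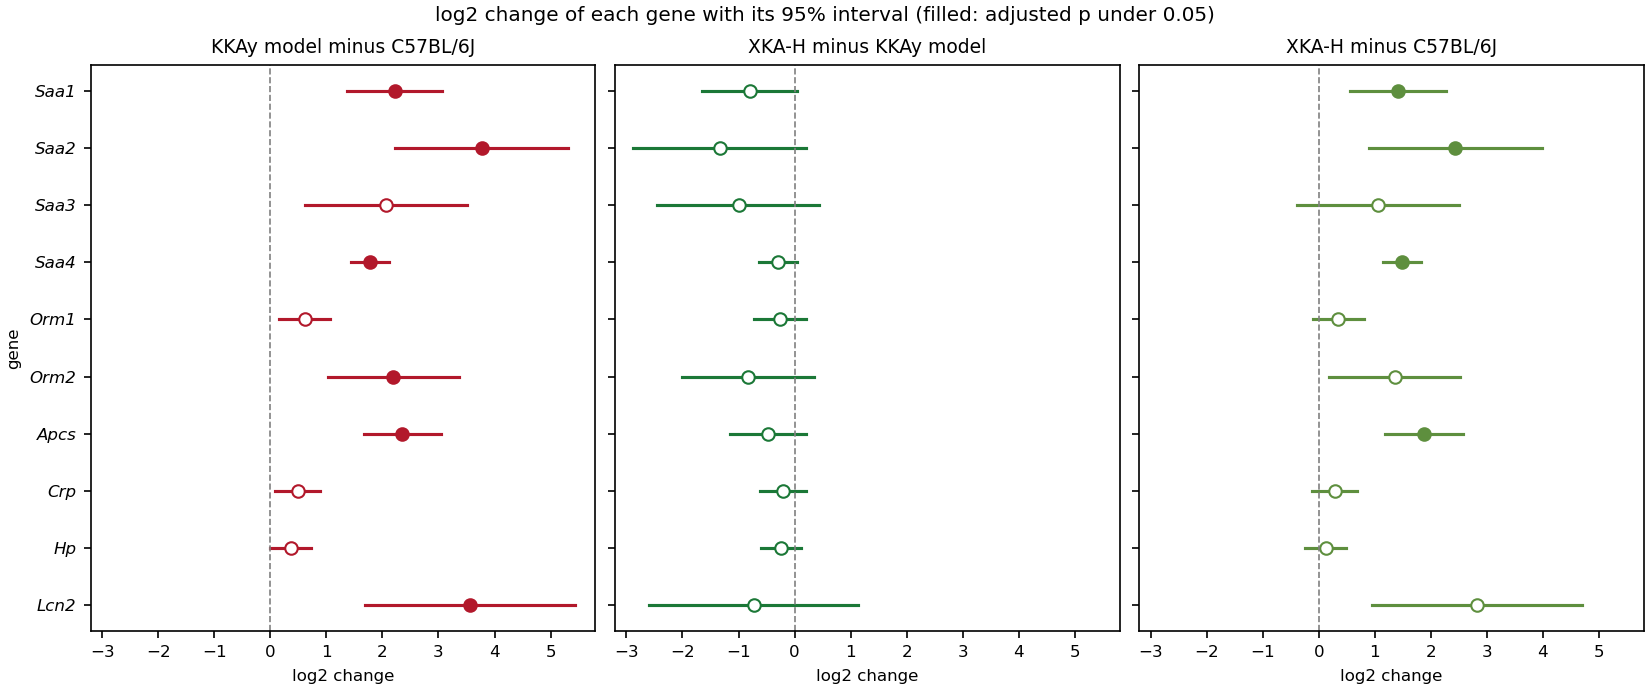
log2 change of each gene in the 3 comparisons (points), with its 95% interval from limma (lines); filled points passed an adjusted p of 0.05. Filled points number 6 of 10 in KKAy model minus C57BL/6J, 0 in XKA-H minus KKAy model, where each interval includes 0, and 4 in XKA-H minus C57BL/6J.

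The orosomucoids are alpha-1-acid glycoproteins, plasma carriers of basic and lipophilic compounds. Orm2 read 476, 183, 64.2, 46.5 and 37.4 array medians in XKA-H livers, 184, 97.3, 580, 200 and 84 in KKAy model livers, and 37.2, 54.6, 29.2, 39.5 and 37.8 in C57BL/6J livers. The C57BL/6J livers were close together, the KKAy model livers all lay above them, and XKA-H replicates 4 and 5 fell back within their range. Orm2 was 4.56-fold higher in KKAy model than in C57BL/6J livers (log2 change 2.19 ± 0.56, adjusted p = 0.0128 by limma) and 1.76 on the log2 scale without KKAy model replicate 3 (adjusted p = 0.0416). Without limma's intensity trend its adjusted p was 0.0503. In XKA-H against KKAy model livers its log2 change was -0.83 (95% interval -2 to 0.34).

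Orm1 ranged from 314 to 659 array medians in XKA-H livers, from 400 to 858 in KKAy model livers and from 278 to 405 in C57BL/6J livers. Its log2 change was 0.61 ± 0.22 in KKAy model against C57BL/6J livers (adjusted p = 0.075 by limma, exact permutation p = 0.0159, unadjusted). The groups overlapped at KKAy model replicate 5 and C57BL/6J replicate 1. Without KKAy model replicate 5 the adjusted p was 0.0325, and without XKA-H replicate 1 it was 0.0484. It rose to 0.21 without KKAy model replicate 3. Orm1 and Orm2 are near copies in one gene cluster, and their probe sets may share transcripts. Orm3, the gene between them and no member of the 10, had a log2 change of 2.23 in the same comparison (adjusted p = 0.0042 by limma).

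Apcs encodes serum amyloid P component, the main acute phase pentraxin of the mouse. It read 525, 287, 221, 244 and 113 array medians in XKA-H livers, 285, 254, 739, 372 and 239 in KKAy model livers, and 86.3, 75.8, 48.3, 67.7 and 63.4 in C57BL/6J livers. All KKAy livers were above all C57BL/6J livers, with XKA-H replicate 5 the nearest to them. Apcs averaged 378 ± 208 in KKAy model livers and 68.3 ± 14.2 in C57BL/6J livers (SD, n = 5 each), a log2 change of 2.35 ± 0.33 (adjusted p = 6.36e-05 by limma). XKA-H livers averaged 278 ± 152, with a log2 change of 1.88 ± 0.33 against C57BL/6J livers (adjusted p = 0.000935) and of -0.47 against KKAy model livers (95% interval -1.16 to 0.21).

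Crp, its neighbor on chromosome 1 and the gene of C-reactive protein, had signals of 196 to 403 array medians in XKA-H livers, 239 to 418 in KKAy model livers and 179 to 289 in C57BL/6J livers. The log2 change in KKAy model against C57BL/6J livers was 0.49 ± 0.19 (adjusted p = 0.107 by limma). Its adjusted p was 0.0374 without KKAy model replicate 5 and 0.253 without C57BL/6J replicate 3. Hp, the gene of the hemoglobin-binding protein haptoglobin, ranged from 324 to 444 in XKA-H livers, from 363 to 573 in KKAy model livers and from 301 to 498 in C57BL/6J livers. Its log2 change was 0.37 ± 0.17 (adjusted p = 0.193 by limma), the smallest of the 10. On the signal scale of each array, the Hp probe set lay above at least 99.4% of genes, that of Orm1 above 99.3% and that of Crp above 98.6%. The brighter Saa4 probe set, with its called change, lay above at least 97.2%. Whether a place near the top of the scale held down the changes of Hp, Orm1 and Crp was not tested. The choice of scaling moved the changes of Orm1, Crp and Hp as it moved the median of all genes. With the values as deposited they were 0.42, 0.3 and 0.17, and the median of all genes was -0.04 in place of 0.15.

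Lcn2 encodes lipocalin 2, which binds bacterial siderophores and is made by hepatocytes, neutrophils and other cells. Its signals were 552, 260, 45.7, 12.3 and 17.4 array medians in XKA-H livers, 78.6, 30.4, 733, 209 and 48.7 in KKAy model livers, and 17.4, 7.34, 9.05, 12.4 and 5.51 in C57BL/6J livers. The XKA-H livers spanned 44.9-fold, with replicates 1 and 2 among the 3 highest of all 15 arrays and replicates 4 and 5 within the C57BL/6J range. Lcn2 was 11.8-fold higher in KKAy model than in C57BL/6J livers (log2 change 3.56 ± 0.89, adjusted p = 0.0113 by limma), and 2.88 on the log2 scale without KKAy model replicate 3 (adjusted p = 0.0375). Between XKA-H and KKAy model livers the log2 change was -0.73, with a 95% interval of -2.6 to 1.14. Against C57BL/6J livers XKA-H livers had a change of 2.82 ± 0.89 (adjusted p = 0.0621 by limma). It passed the threshold without XKA-H replicate 4 (0.0227), XKA-H replicate 5 (0.0313) or KKAy model replicate 3 (0.0353). Without XKA-H replicate 2 the adjusted p was 0.173.

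The groups did not overlap for 7 of the 10 genes in KKAy model against C57BL/6J livers, the 6 called genes and Saa3, where 8.18% of all genes were separated in this direction. In XKA-H against C57BL/6J livers the groups were separated for 3 genes, Saa3, Saa4 and Apcs, where 5.03% of all genes were. For Saa3 the margin was narrow, with 14 array medians in the lowest XKA-H liver and 13.8 in the highest C57BL/6J liver.

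The spread among livers of a group was wide for most of these genes. The median SD of the log2 signal was 0.92 in XKA-H livers, 0.58 in KKAy model livers and 0.3 in C57BL/6J livers, against 0.29, 0.28 and 0.26 over the 11629 genes above the array median in the same 3 groups. In XKA-H livers Lcn2 (2.41) and Saa2 (2.11) had the widest spread, and Hp (0.18) and Saa4 (0.22, by its brighter probe set) the narrowest. In C57BL/6J livers Saa2 (0.99) and Saa1 (0.72) were the widest. No test of these differences in spread was made.

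**Figure D3:**
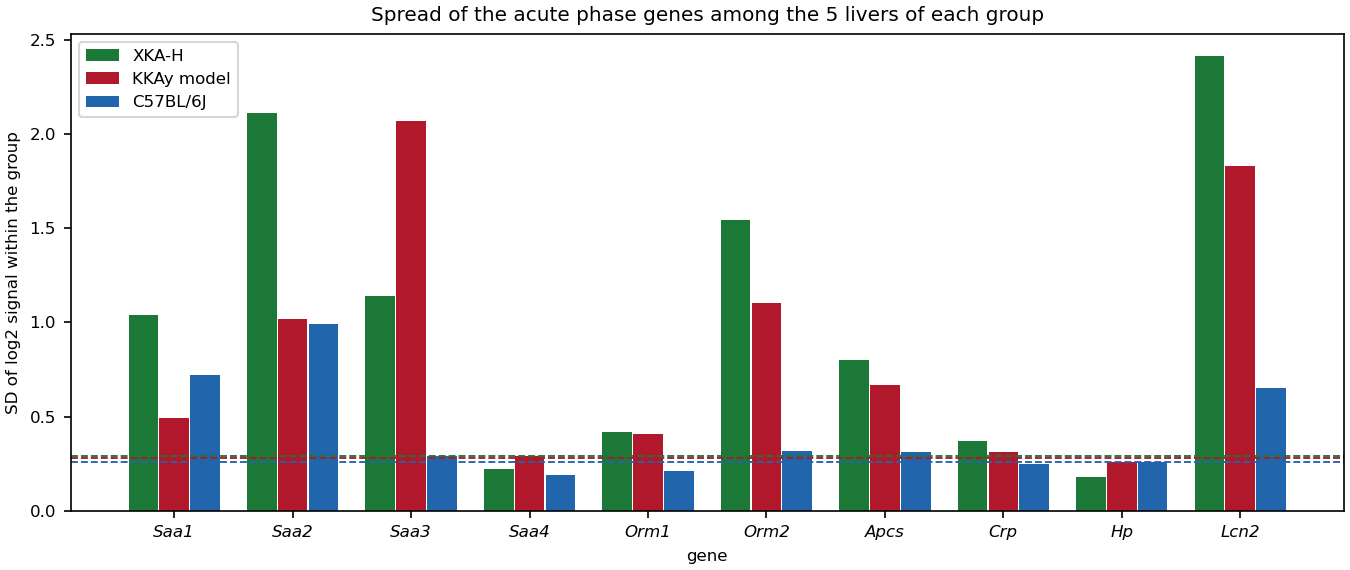
SD of the log2 signal within each group of 5 livers (bars: XKA-H, KKAy model and C57BL/6J, left to right) for each gene, with dashed lines at the median SD of genes above the array median. Lcn2, Saa2, Saa3, Orm2 and Saa1 have bars above 1 in at least 1 KKAy group, while Saa4 (brighter probe set) and Hp stay near the dashed lines in all 3 groups.

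Within each group most of the 10 genes deviated on the same arrays. KKAy model replicate 3 was the highest of its group for 10 of 10 genes (mean deviation from the group mean of 1.24 on the log2 scale), and XKA-H replicate 1 for 9 of 10 (1.32), Hp being highest in replicate 2. XKA-H replicate 5 was the lowest for 8 genes (mean deviation -1) and C57BL/6J replicate 3 for 9 (-0.45). KKAy model replicate 5 was the lowest for 7 (-0.7). Each of these arrays also had the highest undivided median of its group (161, 182 and 162). In the undivided signals KKAy model replicate 5 was the lowest only for Crp and Hp. C57BL/6J replicate 3 was then the lowest only for Saa2, Orm1, Orm2, Apcs and Crp. XKA-H replicate 5 stayed the lowest for Saa1, Saa2, Orm1, Orm2, Apcs, Crp and Hp. The part of the scaling in these low values was not tested. Over the 15 arrays, with group means removed, each gene was set against the mean of the other 9. Pearson's r was highest for Orm1 (0.959), Orm2 (0.936) and Lcn2 (0.931), and lowest for Hp (0.643) and Saa3 (0.726). After quantile normalization r was 0.532 for Hp and 0.567 for Saa4 (0.803 before), and 0.698 or above for the other genes. Without XKA-H replicate 1 and KKAy model replicate 3, the r of Saa3 was 0.421 and that of the other 9 genes stayed at 0.668 or above. Of the 45 pairs of genes, 44 had r above 0.5, and 37 without those arrays. The points share RNA, labeling and array scaling, and these correlations are given as a description.

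**Figure D4:**
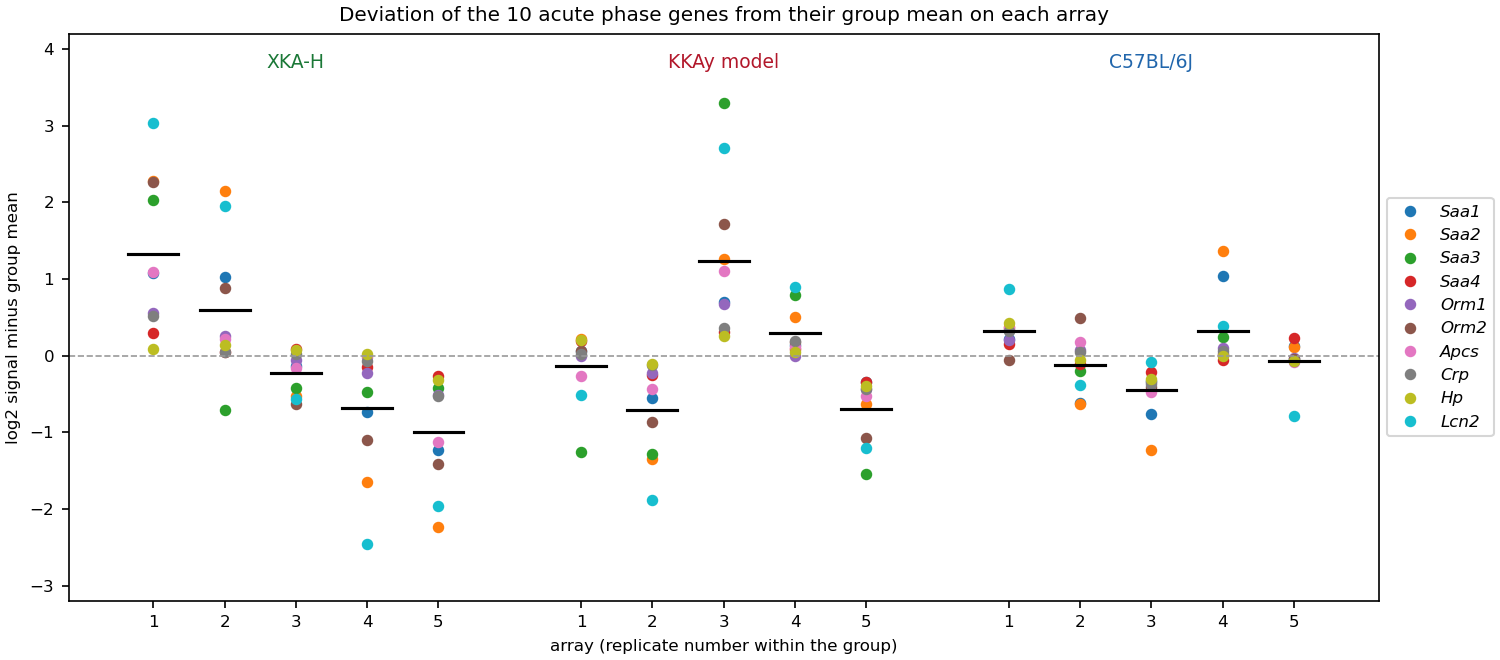
log2 signal of each gene minus its group mean (points, coloured by gene) on each array, with the mean over the 10 genes (bars). KKAy model replicate 3 (mean 1.24) and XKA-H replicate 1 (1.32) stand highest, and XKA-H replicate 5 (-1) lowest.

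The reverse rate, the share of the difference between KKAy model and C57BL/6J means that was absent in XKA-H livers, was taken on group means of the scaled signal for the 6 genes called between KKAy model and C57BL/6J livers. It was 0.432 for Saa1, 0.332 for Saa2, 0.266 for Saa4, 0.357 for Orm2, 0.322 for Apcs and 0.202 for Lcn2. The single livers named above moved it. Without KKAy model replicate 3 it was 0.0866 for Saa2, 0.043 for Apcs, -0.199 for Orm2 and -1.05 for Lcn2. Without XKA-H replicate 1 it was 0.576 for Saa2, 0.522 for Apcs, 0.773 for Orm2 and 0.649 for Lcn2. For Saa4 it stayed between 0.203 and 0.328 whichever array was left out. For Saa3, Orm1, Crp and Hp the divisor was not called different from 0, and no rate is given.

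Among 32 other measured positive acute phase genes, 11 were called higher and 1 lower in KKAy model than in C57BL/6J livers, where 10.6% of all genes were called higher and 2.44% lower. Their median log2 change was 0.4, against 0.15 over all genes. The 4 largest increases were those of Mt2 (log2 change 3.32), Orm3, the protease inhibitor Serpina3n (1.94) and Mt1 (1.67). Mt1 and Mt2 encode metallothioneins, which bind zinc. Hamp2, a hepcidin gene, was lower (-2.07). In XKA-H against C57BL/6J livers 4 were called higher (5.54% of all genes were), Mt2 (3.15), Mt1 (1.68), Serpina3n (1.47) and Lbp (1.33), the lipopolysaccharide-binding protein, and Hamp2 was lower (-1.37). Between XKA-H and KKAy model livers 0 of the 32 were called by limma (3 at an unadjusted p under 0.05, a share near the 8.62% of all genes). Of 17 negative acute phase genes, which fall in the classic response, 0 were called lower in KKAy model livers, where so few genes were called lower overall (2.44%) that this count says little about them, and 1, the corticosteroid-binding globulin gene Serpina6, was called higher (1.08).

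Of 39 genes of interleukin 6 and interleukin 1 signaling and acute phase regulation, 6 were called higher and 0 lower in KKAy model than in C57BL/6J livers, where 10.6% of all genes were called higher. The median log2 change of the 39 was 0.27, against 0.15 over all genes. Il6st, the gene of gp130, read 68.2, 26.5, 31.1, 41.2 and 21.4 array medians in XKA-H livers, 46.9, 41.2, 59.2, 53.8 and 47.5 in KKAy model livers, and 7.9, 10.1, 9.55, 8.38 and 6.38 in C57BL/6J livers. All KKAy livers lay well above the C57BL/6J livers (log2 change 2.56 ± 0.23 in KKAy model and 2.05 ± 0.23 in XKA-H livers, adjusted p = 2.05e-07 and 4.8e-06 by limma). The interleukin 1 receptor Il1r1 had a log2 change of 1.62 and the NF-kB regulator Nfkbiz of 1.3 in KKAy model against C57BL/6J livers. Il1a was called as well (1.86), at signals of 0.187 to 1.77 array medians over the 15 arrays. In XKA-H against C57BL/6J livers, where 5.54% of all genes were called higher, 6 of the 39 were, among them Il6st, Nfkbiz (1.37), Il1r1 (1.33) and the C/EBP factor Cebpd (1.08). Between XKA-H and KKAy model livers 0 of the 39 were called by limma (5 at an unadjusted p under 0.05, which 8.62% of all genes passed).

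A pair of genes in this list was looked at after the values were seen. Il6, the ligand, stayed below the array median on all 15 arrays (0.0218 to 0.593 array medians). Socs3, the feedback inhibitor induced by STAT3, read 143, 16.5, 9.49, 20.2 and 6.72 array medians in XKA-H livers, 29.5, 14.3, 65.7, 29.2 and 17.2 in KKAy model livers, and 12.2, 14.8, 23.7, 19.5 and 30.3 in C57BL/6J livers. Its highest livers were XKA-H replicate 1 and KKAy model replicate 3, the livers in which the acute phase genes were highest in their groups.

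The 8 genes whose deviations from the group mean were most like the mean of the 10, among 11619 others above the array median, were Prg4 (Pearson's r = 0.977 over 15 arrays), Itih4 (0.969), Lrg1 (0.96), Itih3 (0.956), Etnk1 (0.953), Serpina10 (0.945), H6pd (0.94) and Dnajc10 (0.937). Itih3 and Itih4 encode inter-alpha-trypsin inhibitor heavy chains, Lrg1 a leucine-rich plasma glycoprotein, Prg4 lubricin and Serpina10 a plasma protease inhibitor. After quantile normalization r was between 0.824 and 0.97 for the 8 genes, and without XKA-H replicate 1 and KKAy model replicate 3 between 0.858 and 0.958. Prg4 read 190, 84.3, 47.7, 32.6 and 27.4 array medians in XKA-H livers, 47.9, 38, 199, 70.9 and 39.3 in KKAy model livers, and 28.8, 23.3, 17.1, 27.2 and 29.9 in C57BL/6J livers, with the same high pair of livers. By list, the median r was 0.726 for the other positive acute phase genes, 0.609 for the negative ones, 0.412 for the signaling genes and 0.516 for hepatocyte markers, against 0.104 for all genes. It was 0.272 for neutrophil, 0.295 for macrophage and Kupffer cell and 0.167 for adipocyte markers. After quantile normalization the first 4 were 0.656, 0.426, 0.193 and 0.0558 and the cell marker lists 0.286 (neutrophil), 0.194 (macrophage and Kupffer cell) and 0.232 (adipocyte), against -0.00436 for all genes.

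**Figure D5:**
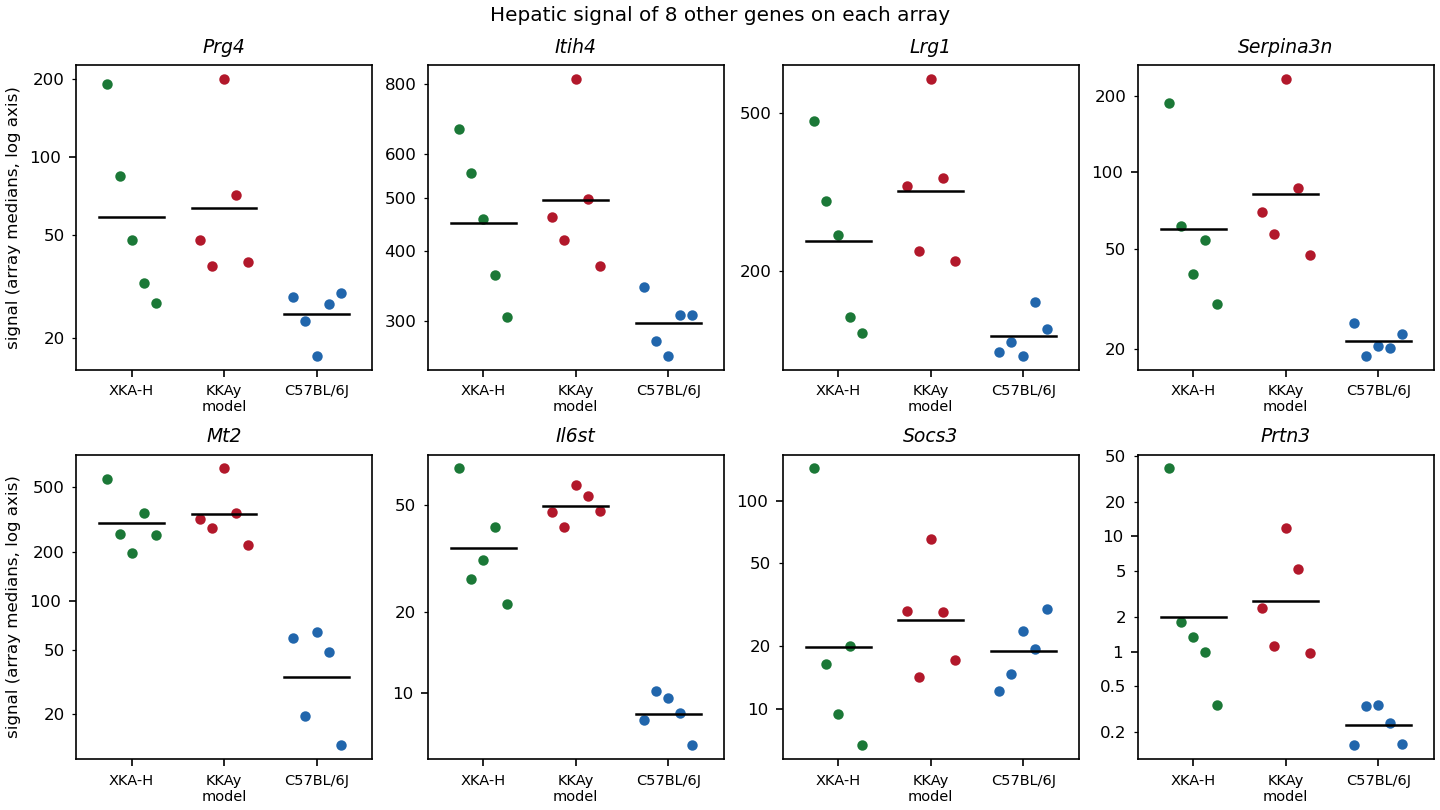
Signal on each array, in array medians on a log axis, of 8 genes outside the 10, for XKA-H, KKAy model and C57BL/6J livers (bar: mean of the log2 signals). XKA-H replicate 1 and KKAy model replicate 3 are the highest of their groups in all 8 panels. Prg4, Itih4 and Lrg1 were picked for likeness to the 10 genes and Socs3 after its values were seen, so their panels favor that pair. Hamp2, not shown, is highest in neither of these livers. All KKAy points lie above the C57BL/6J points for Mt2, Il6st, Serpina3n and, by a narrow margin, Prtn3 (0.344 against 0.342).

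Summed neutrophil markers were high on the same arrays as the acute phase genes, and summed macrophage and adipocyte markers were not highest there. Marker by marker, neutrophil and macrophage lists were not set apart in this way. With the mean of the acute phase genes, 4 of 12 neutrophil markers had r above 0.5 (median 0.272). For macrophage and Kupffer cell markers it was 3 of 16 (median 0.295), and for adipocyte markers 0 of 9 (median 0.167). Of all genes 13.8% had r above 0.5. The summed neutrophil markers were 69.2 array medians in XKA-H replicate 1 and 47.8 in KKAy model replicate 3, the highest of their groups. Of the 12 markers, Prtn3 and S100a8 were called higher in KKAy model than in C57BL/6J livers (log2 changes 3.57 and 2.16). Of all genes 10.6% were called higher and 2.44% lower. In the same comparison 4 of 9 adipocyte markers were called higher, Cidea (4.06), Cidec (2.72), Pparg (1.81) and Fabp4 (0.74). Of 16 macrophage and Kupffer cell markers, Lyz2 (0.8) and C1qc (0.56) were called higher and Marco lower (-3.1). The neutrophil markers Camp and Cxcr2 were below the array median on every array. Prtn3, a neutrophil granule protease, read 38.9 in XKA-H replicate 1 and 11.8 in KKAy model replicate 3, and no more than 5.24 on any other array. Its C57BL/6J signals were all far below the array median (0.155 to 0.342), so the size of its change rests on very dim values. Summed macrophage and Kupffer cell markers (16) ranged from 170 to 301 in XKA-H livers, from 214 to 521 in KKAy model livers and from 179 to 320 in C57BL/6J livers. They were 183 in XKA-H replicate 1, the second lowest of its group, and 391 in KKAy model replicate 3, below replicate 4. Summed adipocyte markers (9) ranged from 18.6 to 30.8 in XKA-H livers, from 20.3 to 88.4 in KKAy model livers and from 10.6 to 18.4 in C57BL/6J livers, with Adipoq and Lep below the array median on every array. They were 23.5 in XKA-H replicate 1, the second lowest of its group, and 45.4 in KKAy model replicate 3, again below replicate 4 (88.4). Between XKA-H and KKAy model livers 0 markers of these lists were called by limma. At an unadjusted p under 0.05, 7 of 16 macrophage and Kupffer cell, 2 of 12 neutrophil and 1 of 9 adipocyte markers passed. Of all genes 8.62% did. The median log2 changes were -0.49, -0.38 and -0.37 in that order, against -0.06 over all genes. The part of these cells in the results for Lcn2, Saa3 and the other genes was not tested.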

How the data were processed

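Total RNA of each liver was labeled and hybridized to 1 Affymetrix mouse genome array, with 5 mice a group. Per the labels and the study's methods, the authors processed the arrays in ArrayTrack with median scaling to a target of 1000. They deposited linear intensity values, 1 per probe set, whose medians still differed between arrays. The sources used here do not say how probes were summarized. Each intensity was divided by its array's median and log2 transformed. Of 45101 probe sets, 34958 had 1 gene symbol, 932 several and 9211 none, and 13 controls were left out. The probe set with the highest mean stood for each gene.

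The 3 groups were fitted together with limma 3.58.1 in R 4.3.3 (lmFit, and eBayes with an intensity trend), with Benjamini-Hochberg adjustment over 18193 genes, two-sided, at 0.05. The fit was tested on simulated data. Arrays carry no counts, so their number limits the precision. Members and gene lists were chosen with earlier results of these data known. Text names all members, up to 4 called genes of each other list per comparison and direction with the largest change, the 8 genes most like the members, and marker genes. Settings for scaling, probe sets, dim genes, variance, samples, Dunnett comparisons as in the methods, and left-out arrays were varied.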

Additional observations from a re-analysis of the deposited data

Results flagged for a closer look

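Each gene was checked in each group of 5 livers for a sample far from the others, by the gap of the highest or lowest log2 signal to its neighbor divided by the range of the group. The gap passed the 95% critical value of 0.71 in 2 of 30 cases, and chance flags about 1 in 20 groups. For Saa3, XKA-H replicate 1 stood apart with a ratio of 0.894, at 93.5 array medians against 14 to 17.1 in the other 4 XKA-H livers. For Hp, XKA-H replicate 5 stood apart with a ratio of 0.76, at 324 array medians against 412 to 444 in the other 4.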

How the results depend on the processing

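In KKAy model minus C57BL/6J, the number of the 10 genes called higher was 6, was 6 to 9 with any 1 array left out and 4 to 9 under the other settings, and 0 were called lower in each. In XKA-H minus KKAy model 0 were called higher or lower under every setting tried, any 1 array left out included. In XKA-H minus C57BL/6J the number called higher was 4, and 2 with the values as deposited, with the mean of a gene's probe sets, without the intensity trend, with only the 2 groups compared, with the replicate block, and without both KKAy model replicate 3 and XKA-H replicate 1. It was 2 to 5 with 1 array left out, being 2 without XKA-H replicate 1, 2 or 3 or C57BL/6J replicate 1, 2, 3 or 5. In these settings Saa4 and Apcs passed, and Saa1 and Saa2 did not. The count was 3, without Saa2, after quantile normalization (adjusted p = 0.0619) and with each probe set on its own (0.0567). Under the other settings it ranged from 2 to 6. Lcn2 passed by limma with only genes above the array median (adjusted p = 0.0404) and with array weights (0.0461). By the unadjusted exact permutation test Lcn2 (p = 0.0397) and Saa3 (0.00794) passed. The cause was not tested. Hp in XKA-H minus C57BL/6J reversed to -0.03 with the values as deposited (0.13 in the scaled data), with neither past the threshold. Replicate numbers did not pair the arrays (correlations of same-numbered arrays from -0.119 to 0.176). With the replicate block Saa1 and Saa2 had adjusted p values of 0.0544 and 0.0648 in XKA-H minus C57BL/6J, and no other member's call changed. Scaling moved the direction of calls over all genes. In KKAy model minus C57BL/6J 81.3% of calls were higher, against 52.5% as deposited and 59.2% quantile normalized, and in XKA-H minus C57BL/6J 73.9%, 47.3% and 55.9%. Over all genes, 32 were called in XKA-H minus KKAy model, and 63 as deposited, 113 quantile normalized, 52 with array weights, 19 with 2 groups, 6 with the mean of probe sets, 4 without the trend, and 944 and 0 by Dunnett comparisons before and after adjustment across genes. With 1 array left out its lowest value was 11, on dropping replicate 3 of XKA-H, and its highest 54, on dropping replicate 1, and it moved by over 1.5 times for 7 of 15 arrays. In KKAy model minus C57BL/6J Dunnett comparisons called 3564 and 1379 genes, against 2366, and Orm2 (adjusted p = 0.125) and Lcn2 (0.12) did not pass after adjustment. Orm2 also did not pass without the trend (0.0503). In XKA-H minus C57BL/6J, 1363 genes were called, 828 with the mean of probe sets and 892 without the trend. The reverse rate of Lcn2 was -1.05 without KKAy model replicate 3. Without both that array and XKA-H replicate 1, it was 0.0961 for Lcn2 (0.202 with all arrays), 0.576 for Orm2 (0.357), 0.501 for Saa1, 0.42 for Saa2, 0.325 for Apcs and 0.27 for Saa4. Quantile normalization of the likeness and the reverse rates without both arrays were added after the data were seen.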
